A study of Mus musculus with 10 samples.

Results

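The genes described here are 9 transcription regulators of extraembryonic and early endodermal lineages, *Sall4*, *Cited1*, *Elf3*, *Esx1*, *Gbx2*, *Hnf4a*, *Tfcp2l1*, *Hhex* and *Prdm1*, taken by name from a single-cell count table of 23197 genes. All 9 were listed in the table. They were followed through a chemical reprogramming course in which mouse embryonic fibroblasts (MEFs) from ICR embryos, prepared without head, limbs and viscera, were turned into extraembryonic endoderm-like (XEN-like) cells. The cocktail, C6FAE, holds CHIR99021, the compound abbreviated 6, Forskolin, AM580 and EPZ004777. The methods of the study add valproic acid, under the name VC6FAE, and basic fibroblast growth factor to the medium. The labels here read C6FAE, the study's name for the cocktail without valproic acid, and do not mention the growth factor. Single cells were picked by hand on day 0, before the cocktail (d0), and on days 1, 2, 3, 4, 5, 6, 8, 12 and 20 under it, with the cells of day 6 named d6p, and further cells were picked from colonies on day 8 (d8c) and day 12 (d12c). No genetic change was made in any of these groups.

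Unique molecular identifiers (UMIs) mark single RNA molecules, and the table gives their number per gene and cell. Of 808 cells, 670 had at least 4000 detected genes and were kept, from 20 cells at d8c to 86 at d6p. Levels are UMIs of the gene per 1000000 UMIs of the cell, spike-ins left out (CPM). The series lists 10 batches, but the names of the cells do not show the batch, so the whole table counted as 1 unreplicated sample and group differences carry no p-value. The 95% intervals below are exact and cover counting error only, and for a count of 0 the share that 3 cells of the group would make is given as the limit instead. Median depth was 344196 UMIs at d0 and ran from 195480 at d20 to 1055206 at d2, and shares of cells with a UMI are therefore also given after thinning each cell to 50000 UMIs, which 647 cells allowed. The d12c cells come in separate ranges of running numbers. The kept cells numbered 1 to 24 (21 cells) had a median summed CPM of 12 fibroblast genes of 6731 and those numbered 49 to 96 (30 cells) of 40.3, against 11429 at d12 and 48.5 at d20. All 24 cells numbered between these ranges fell to the gene filter. The ranges are given apart throughout, and if they stand for libraries, library and cell state cannot be told apart.

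The extraembryonic endoderm forms beside the embryo proper and gives rise to visceral endoderm, which nourishes the embryo through the yolk sac, and parietal endoderm, which lays down a thick basement membrane. XEN cells are the cultured form of its precursor and carry Sox17, Gata4, Gata6 and Sall4. Among the genes here, *Sall4* encodes a zinc finger protein of pluripotent and XEN cells and *Cited1* a transcriptional coactivator without DNA-binding domain that is expressed in trophoblast and yolk sac. *Elf3* encodes an epithelial ETS factor, *Esx1* an X-linked homeobox protein known from the placenta, and *Gbx2* and *Tfcp2l1* factors of early embryonic and pluripotent cells. *Hnf4a*, *Hhex* and *Prdm1* belong to endoderm: *Hnf4a* encodes a nuclear receptor that drives the serum protein genes of visceral endoderm and liver, *Hhex* a homeobox protein of anterior visceral endoderm, and *Prdm1* a zinc finger repressor that is also found in mesenchymal and germ cells.

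Promoter sequences are shown for *Elf3*, *Esx1* and *Prdm1*, because these genes part from each other most clearly on day 12 in the cells described below. The windows hold the 250 bases before the annotated start, 5′ to 3′ on the strand of the gene, from RefSeq on GRCm38.p6. They lie at chr1:135258473-135258722, chrX:137120327-137120576 and chr10:44458749-44458998, all on the minus strand. Capitals mark matches on either strand to GATAA, a core of GATA sites, ATTGT, a core of SOX sites, and TGTTTAC, a forkhead site.
Elf3: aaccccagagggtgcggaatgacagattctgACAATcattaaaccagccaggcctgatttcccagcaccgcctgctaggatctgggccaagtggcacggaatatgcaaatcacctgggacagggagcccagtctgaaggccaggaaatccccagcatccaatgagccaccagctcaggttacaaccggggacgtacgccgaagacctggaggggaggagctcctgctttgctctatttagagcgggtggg
Esx1: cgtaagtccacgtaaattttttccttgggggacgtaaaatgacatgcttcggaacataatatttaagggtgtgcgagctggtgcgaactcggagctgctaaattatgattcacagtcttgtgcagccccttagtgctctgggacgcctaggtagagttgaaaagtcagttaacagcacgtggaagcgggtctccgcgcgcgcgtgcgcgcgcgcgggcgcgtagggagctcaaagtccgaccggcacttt
Prdm1: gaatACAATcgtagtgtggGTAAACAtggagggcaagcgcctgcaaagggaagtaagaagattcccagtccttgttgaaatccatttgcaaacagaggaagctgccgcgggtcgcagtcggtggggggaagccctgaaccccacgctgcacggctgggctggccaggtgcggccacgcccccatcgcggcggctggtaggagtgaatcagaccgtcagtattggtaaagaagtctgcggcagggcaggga
The *Elf3* window held 1 match to ATTGT, starting at base -219 from the start. The *Esx1* window held none of the 3 motifs. The *Prdm1* window held 1 match to ATTGT at -246 and 1 to TGTTTAC at -231, and none of these overlapped. RefSeq entries were found for 8 of the 9 genes, with 11 starts in all. The other matches were a GATAA at -202 of the third of 3 *Cited1* starts, and a GATAA at -51 and an ATTGT at -134 of the first of 2 *Hnf4a* starts. Windows of *Gbx2*, *Tfcp2l1* and *Hhex* held none. Of all 32851 windows of this length, 22.6% held GATAA, 27.7% ATTGT and 3.17% TGTTTAC. A match is a string of letters and not a measured site.

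On the mm9 genome (NCBIM37, GENCODE M1) the genes lie on chromosomes 1 (*Elf3*, *Gbx2* and *Tfcp2l1*), 2 (*Sall4* and *Hnf4a*), 10 (*Prdm1*), 19 (*Hhex*) and X (*Cited1* and *Esx1*), and all are protein coding. *Sall4* spans 168573832 to 168593443 of chromosome 2, *Cited1* 99442720 to 99447520 of the X chromosome, *Elf3* 137150151 to 137155049 and *Gbx2* 91824537 to 91829865 of chromosome 1, and *Esx1* 133649936 to 133656622 of the X chromosome. *Hhex* spans 37507377 to 37515218 of chromosome 19 and *Prdm1* 44156983 to 44248307 of chromosome 10. *Tfcp2l1* is annotated under its older name Tcfcp2l1. *Hnf4a* spans 163332544 to 163398646 of chromosome 2 and *Tfcp2l1* 120524522 to 120581744 of chromosome 1. In this annotation, small RNA genes aside, *Sall4*, *Elf3*, *Gbx2* and *Hnf4a* are each overlapped by a gene on the opposite strand that the count table does not list. Whether counting used the strand is not stated, so reads from these partners cannot be told apart from those of the 4 genes.

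*Cited1* was the earliest and the most widespread of these genes. At d0 it had a UMI in 38.9% of 72 cells (27.6 to 51.1) with a mean of 7.02 CPM and a highest cell of 143 CPM. One day of cocktail brought the share to 77.5% of 40 cells (61.5 to 89.2) and the mean to 55.2 CPM. Thinned, the same step went from 11.3% to 45.0%. From d2 to d8 the mean stayed between 12.1 and 80.7 CPM without a steady course, and the d4 mean rested in part on 1 cell at 2518 CPM. Colony cells of d8 had a mean of 186 CPM against 12.1 CPM in the other d8 cells, and d12 cells one of 64.4 CPM with a median of 6.64. The largest rise came with the later-numbered colony cells. The mean in d12c cells numbered 49 to 96 was 2344 CPM, with a lowest, median and highest cell at 41.1, 2126 and 6747 CPM, and at d20 it was 2027 CPM, with 139, 1763 and 5397 CPM. All 68 cells of these groups carried *Cited1* at 20 CPM or more. The mean in d12c cells numbered 1 to 24 was 335 CPM, but 1 cell stood at 4869 CPM and the median was 9.76. Values of the later colony cells and of d20 cells overlapped almost fully, and both lay above most cells of d0 to d8c, of which 102 of 514 reached 20 CPM.

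*Sall4* was found early in few cells and late in most. No UMI was found in 72 d0 cells, which by this limit allows a share of up to 4.17%, nor in 40 d1 cells. At d2 a UMI was seen in 8.43% of cells (3.46 to 16.6), 5 of 7 with 1 UMI and none after thinning, and from d3 to d8c in 16.7% to 27.4%. The mean stayed under 5 CPM up to d5 and reached 8.29 CPM at d6p, where 1 cell at 446 CPM carried most of it. That value came from 34 UMIs in a cell of 76180 UMIs. The d6p cells numbered 49 and above had a mean of 15.5 CPM, with 4 of 45 at 20 CPM or more. Those numbered 1 to 48 had a mean of 0.39 CPM, with 0 of 41 at that level. At d12 *Sall4* had a UMI in 13.4% of 67 cells (6.33 to 24), with a mean of 2.23 CPM and a median of 0. The share in d12c cells numbered 49 to 96 was 80.0% (61.4 to 92.3), with a median of 70.6 and a highest cell of 517 CPM. At d20 it was 92.1% of 38 cells (78.6 to 98.3), with a median of 64.7 and a highest cell of 369 CPM. A single UMI was found in the 21 d12c cells numbered 1 to 24. Thus the late groups held *Sall4* in most cells, whereas d12 and the early-numbered colony cells were at or under the level of d8.

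The d3 to d8c cells with *Sall4* at 20 CPM or more numbered 19. Of these, 10 (52.6%, 28.9 to 75.6) also had a UMI of *Sox17*, a transcription factor of endoderm, against 75 of 249 cells (30.1%, 24.5 to 36.2) without *Sall4*. The *Sall4* cells at 446 and 173 CPM, both of d6p, had no *Sox17* UMI. Median depths differed, at 990648 and 446402 UMIs, and the part of depth in this was not tested. It was not particular to *Sall4*. *Sox17* had a UMI in 30 of 61 cells with *Cited1* at 20 CPM or more, against 15 of 97 without *Cited1*. For *Hhex* this was 7 of 14 against 74 of 254, and for *Prdm1* 8 of 18 against 84 of 254. In each case the cells with the regulator were deeper at the median. *Elf3* and *Esx1* had no UMI in the 19 cells, a count that allows up to 15.8% of such cells. *Cited1* had a UMI in 14 of them (73.7%, 48.8 to 90.9) and *Prdm1* in 7 (36.8%, 16.3 to 61.6). Cells without *Sall4*, which were shallower, gave shares of 66.7% (60.4 to 72.5) for *Cited1* and 18.5% (13.9 to 23.9) for *Prdm1*. The intervals overlapped for both genes. For *Elf3* and *Esx1* the shares without *Sall4* were 0% and 1.20%, so their absence did not set the 19 cells apart.

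*Elf3* was nearly silent until day 12. Over d0 to d8c it had 3 UMIs, in 2 of 514 cells. At d12 it had a UMI in 59.7% of 67 cells (47.0 to 71.5), but the median was 1.23 CPM, 15 of the 40 positive cells held 1 UMI, and after thinning the share was 9.09%. The mean of 10.0 CPM came mostly from 5 cells at 20 CPM or more, with a highest of 224 CPM. The median in d12c cells numbered 1 to 24 was 1.27 and the mean 41.1 CPM, again from 5 cells, up to 443 CPM. In those numbered 49 to 96 the median was 76.2 CPM and 24 of 30 cells were at 20 CPM or more, and at d20 the median was 60.01 CPM with 25 of 38. Most d12 cells therefore lay far below the late groups, with a small number among them.

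*Esx1* became common in the late groups and was rare before them. In d0 to d8c cells it had UMIs in 4 of 514 cells, and 28 of its 32 UMIs came from 1 d5 cell at 14.8 CPM. At d12 it had 5 UMIs in 4 of 67 cells (5.97%, 1.65 to 14.6), with a highest cell of 6.95 CPM, and in d12c cells numbered 1 to 24 it had 1 UMI. In d12c cells numbered 49 to 96 it had a UMI in 27 of 30 cells (73.5% to 97.9%), with a median of 22.9 and a highest cell of 124 CPM. At d20 the share was 86.8% (71.9 to 95.6), with a median of 53.8 and a highest cell of 232 CPM. The mean was 38.4 CPM in the former and 79.3 CPM in the latter group, with overlapping cells. No d12 cell and no early-numbered colony cell came near the medians of the late groups.

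*Gbx2* was carried by a part of the late cells. It had no UMI in 67 d12 cells, which allows up to 4.48%, and in d0 to d8c it had UMIs in 14 of 514 cells, among them 2 at 20 CPM or more, from d4 and d5. In d12c cells numbered 49 to 96 it had a UMI in 66.7% (47.2 to 82.7), with a median of 20.8, a highest cell of 197 and a mean of 47.7 CPM. At d20 the share was 52.6% (35.8 to 69.0), with a median of 3.59, a highest cell of 251 and a mean of 38 CPM. The intervals of these shares overlapped. *Tfcp2l1* was rarer. It had a UMI in 13 of 514 cells of d0 to d8c, in 4 of 30 d12c cells numbered 49 to 96 and in 9 of 38 d20 cells (23.7%, 11.4 to 40.2). Its d20 mean of 20.7 CPM, with a median of 0 and a highest cell of 298 CPM, was 13.15 CPM without that cell.

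Among the endodermal factors, *Hnf4a* was at the floor of the assay. A single UMI was found in 670 cells, in a d20 cell at 16.2 CPM. For the 38 d20 cells this gives a share of 2.63% (0.067 to 13.8). Of the 17 visceral endoderm genes measured, 5 could be compared between d20 and d0, and 3 were higher by more than 2 and none lower, among them *Ihh* (2.86) and *Foxa2* (2.59). Genes of serum proteins were mostly silent, with an exception. *Afp*, *Apoa1*, *Apoa2*, *Apoa4*, *Apob* and *Fgb* had no UMI in d20 cells or in d12c cells numbered 49 to 96, and *Ttr* had one in 1 d20 cell. *Rbp4*, which encodes the retinol carrier of serum, had a UMI in 20 of 38 d20 cells at a mean of 101 CPM, in 6 of 30 d12c cells numbered 49 to 96 at 9.02 CPM and in all 67 d12 cells at 547 CPM, against 20.1 CPM at d0. *Foxa2*, a forkhead factor of endoderm, was at a mean of 28.6 CPM at d20. Of 13 genes of parietal endoderm, 7 were higher and 1 lower by more than 2 in mean log2(CPM + 1) at d20 than at d0, among them *Srgn* (9.03 higher), *Pth1r* (4.78 higher), *Krt19* (4.12 higher) and *Col4a2* (3.73 higher), whereas the tissue plasminogen activator gene *Plat* was lower by -3.49.

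*Hhex* was present through the course in a minority of cells and highest in the late colonies. At d0 it had a UMI in 6.94% of cells (2.29 to 15.5) and at d2 in 28.9% (19.5 to 39.9), thinned in 0% and 9.76%. Its d2 mean of 4.30 CPM came from cells numbered 1 to 48, with a mean of 7.62 CPM and 6 cells at 20 CPM or more, against 0.37 CPM and none in those numbered 49 and above. Means from d3 to d12 lay between 0.57 and 4.09 CPM. In d12c cells numbered 49 to 96 the mean was 33.0 CPM, the median 0 and the highest cell 310 CPM, with 10 of 30 cells at 20 CPM or more. At d20 the mean was 6.32 CPM, with 4 of 38 cells at 20 CPM or more, and it was 3.0 CPM without the highest cell.

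*Prdm1* ran against the others on day 12. Its mean was highest of the 12 groups at d12, with a UMI in 73.1% of 67 cells (60.9 to 83.2), thinned 30.3%, a median of 2.08, a highest cell of 145 and a mean of 19.0 CPM. d12c cells numbered 1 to 24 resembled them, with a UMI in 66.7% (43.0 to 85.4) and a mean of 29.3 CPM, of which 1 cell at 291 CPM gave a large part. In d12c cells numbered 49 to 96 it had a UMI in 1 of 30 cells (3.33%, 0.084 to 17.2), and at d20 in 4 of 38 (10.5%, 2.94 to 24.8), with 1 cell in each group at 20 CPM or more. Before day 12 it was seen in 12.9% to 44.4% of cells. A first rise was seen at d2, with a mean of 8.24 CPM and 12 of 83 cells at 20 CPM or more, against 0.588 CPM and none at d0.

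**Figure D1:**
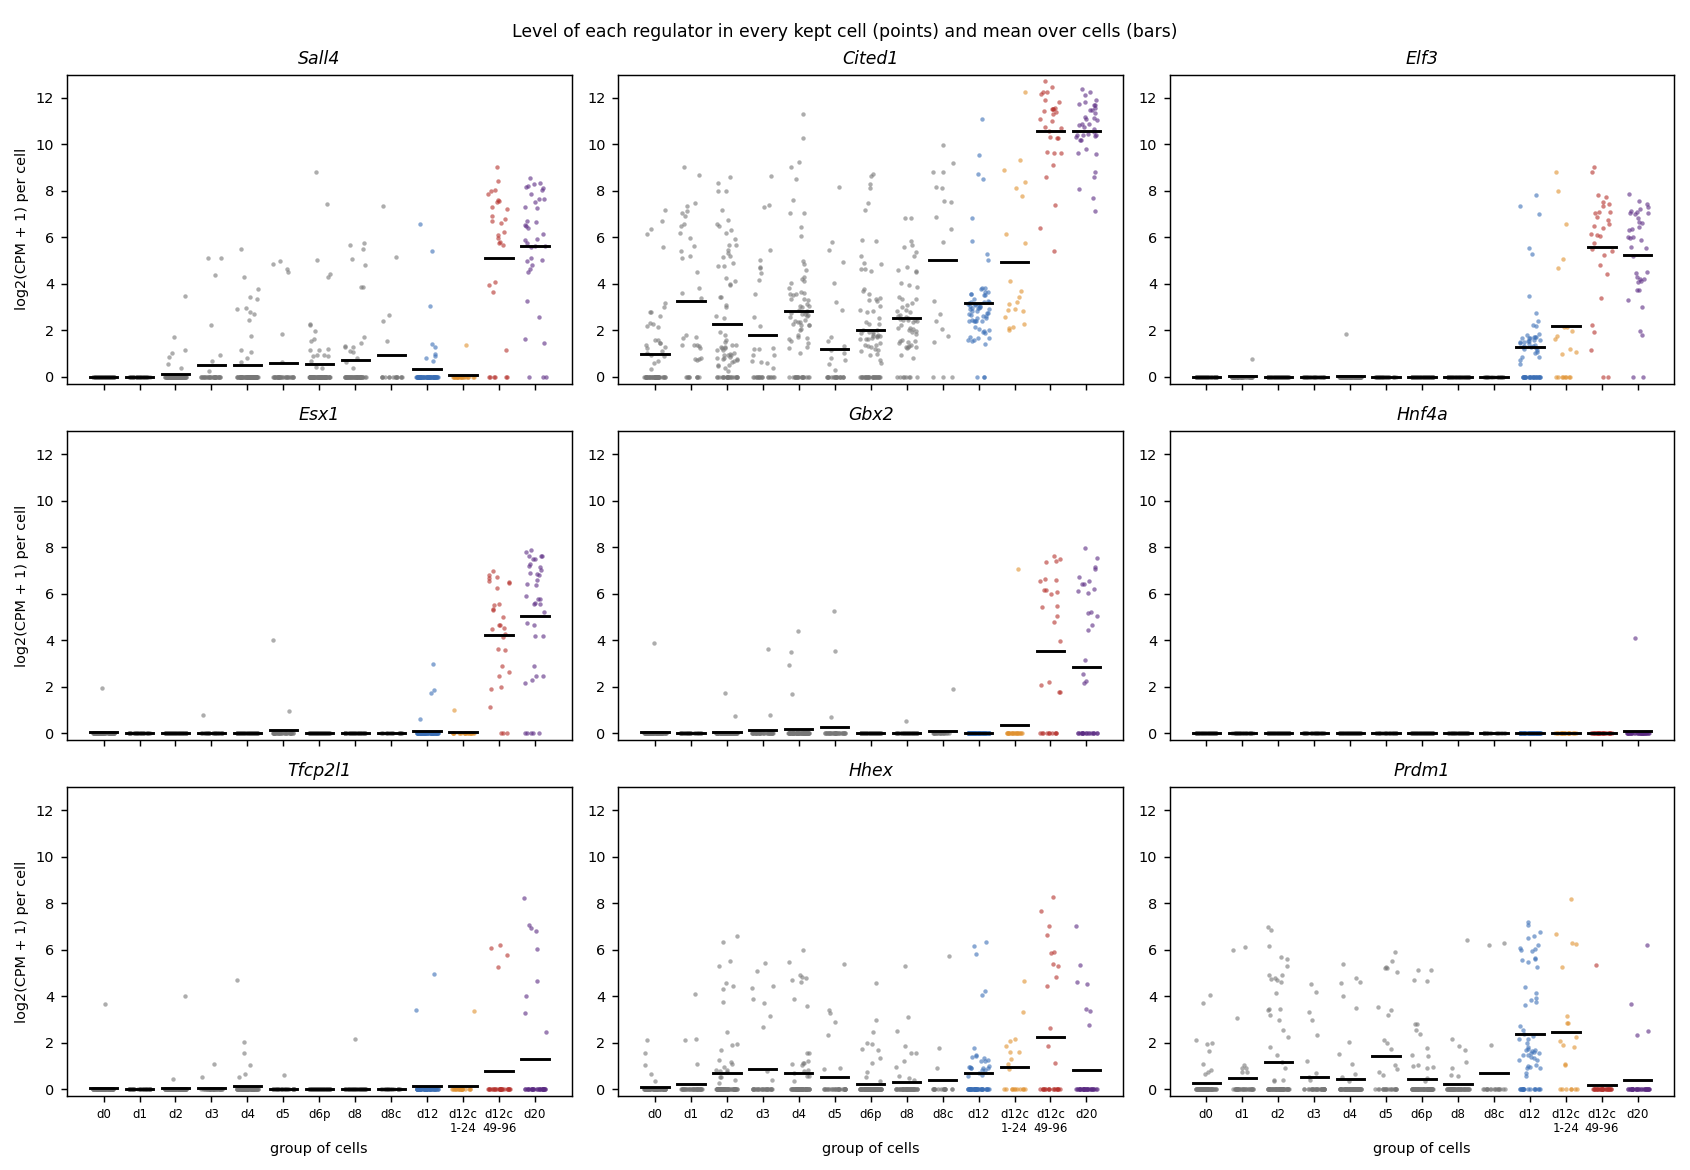
Each point is 1 kept cell, with its level as log2(CPM + 1) on the vertical axis, its group on the horizontal axis and 1 panel per gene, and bars are means over cells. *Elf3*, *Esx1*, *Gbx2* and *Sall4* are near 0 in most cells up to d12 and in d12c cells numbered 1 to 24, and are spread up to 517 CPM in d12c cells numbered 49 to 96 and d20, while *Prdm1* is highest at d12 and in the early-numbered colony cells.

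The order in which the genes appeared was read from a pair of measures. The first time point whose share of cells with a UMI lay above the upper limit of the d0 interval was d1 for *Cited1*, d2 for *Sall4*, *Hhex* and *Prdm1*, d4 for *Tfcp2l1*, d5 for *Gbx2*, d12 for *Elf3* and d12c for *Esx1*. After thinning, *Sall4* moved to d3 and *Tfcp2l1* to d12c, and the other genes stayed. *Hnf4a* passed this limit at no time point. The first time point with a mean above 5 CPM was d0 for *Cited1*, d2 for *Prdm1*, d6p for *Sall4*, d12 for *Elf3*, d12c for *Esx1*, *Gbx2* and *Hhex* and d20 for *Tfcp2l1*, with none for *Hnf4a*. Without the highest cell of each group, *Sall4* passed this level at d12c. In both readings *Cited1* came before *Elf3* and *Esx1*. The groups d12 and d12c are of the same day, so no order in time was read between *Elf3* and *Esx1*, and most d12 cells with *Elf3* were under 20 CPM. The places of *Sall4*, *Gbx2* and *Tfcp2l1* rested on few cells. *Gbx2* had a UMI in 3 of 36 cells at d5 and in 0 of 86 at d6p. *Tfcp2l1* had one in 6 of 77 cells at d4, 5 of them with 1 UMI, and in 0 of 86 at d6p. The place of *Hhex* and *Prdm1* at d2 was not secure either. Their thinned d2 intervals, 4.31 to 18.3 and 10.6 to 28.4, reached below the d0 limits of 5.06 and 11.9. With all UMIs, *Prdm1* from d3 to d8c passed its limit of 24.1% at d5 only. *Hhex* was back under its limit of 15.5% at d6p and d8c.

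**Figure D2:**
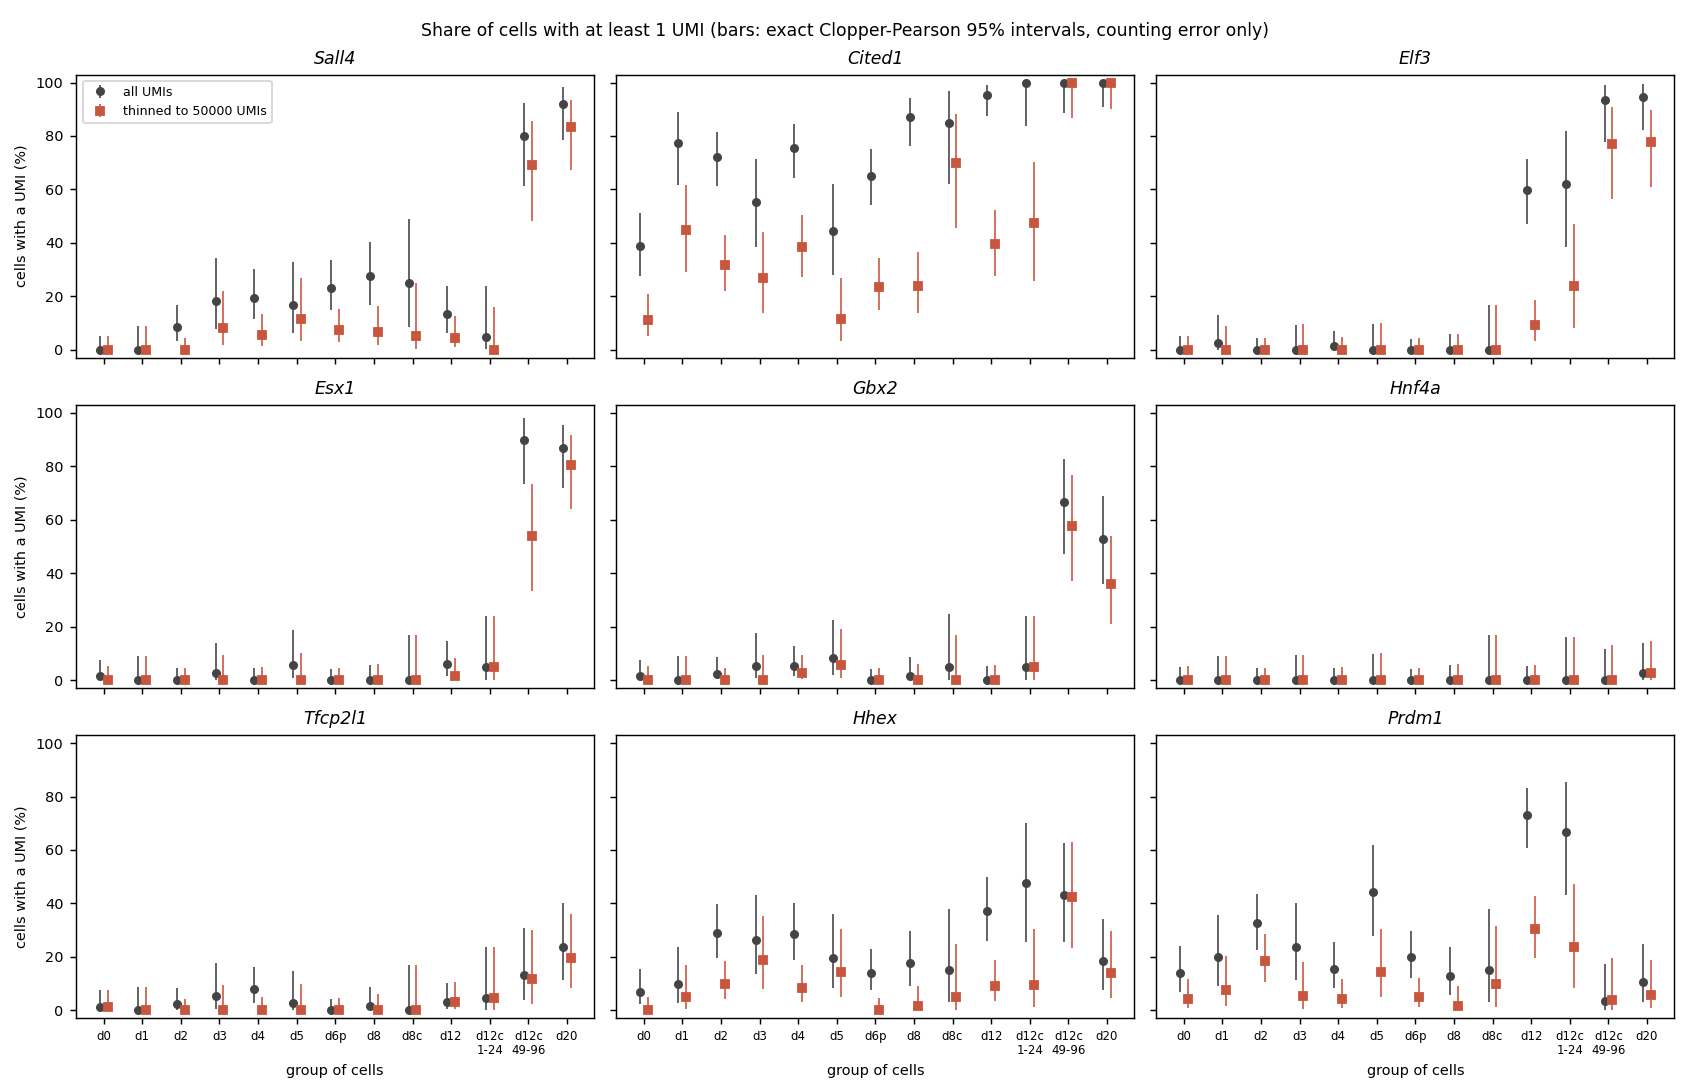
Share of cells with at least 1 UMI (%, vertical axis) per group, with 1 panel per gene, for all UMIs (grey circles) and after thinning to 50000 UMIs (red squares), with exact Clopper-Pearson 95% intervals. For *Elf3* at d12 the share is 59.7% with all UMIs and 9.09% thinned, whereas *Esx1* in d12c cells numbered 49 to 96 is found in 27 of 30 cells with all UMIs and in 53.8% thinned.

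Differences between groups were taken in mean log2(CPM + 1), over genes whose mean reached 1 in one of the groups compared, and a difference over 2 was counted. Without replicates this is a size and not a test. Between d20 and d0, 5 of the 9 genes were higher by more than 2, where 4.38% of 9352 genes were, and none was lower, where 8.92% of genes were. *Cited1* was higher by 9.61, the third largest rise of all genes compared, *Sall4* by 5.64, *Elf3* by 5.25, *Esx1* by 5.01 and *Gbx2* by 2.81. *Tfcp2l1* differed by 1.25. *Hnf4a*, *Hhex* and *Prdm1* were under the level filter, with differences of 0.11, 0.74 and 0.12. All 6 genes compared reached the level filter only through d20, so none could be counted as lower and their median could only be positive. That median was 5.13, against -0.20 over all genes compared, and over all 9 genes it was 2.81. *Sall4* and *Elf3* had no UMI at d0, and from summed UMIs and 3 UMIs over the d0 group as the floor they were at least 1046-fold and 901-fold higher at d20. With both at that bound the median of the 6 was 7.31. In the same comparison 10 of the 12 XEN genes compared (*Sox17*, *Gata4* and others) were higher and 11 of 12 fibroblast genes lower by more than 2, from lists drawn up with such results known.

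Between d12 and d0 the counted genes were *Cited1* and *Prdm1*, higher by 2.21 and 2.12, where 7.21% of 9611 genes were higher and 4.19% lower. Thinned, they differed by 1.62 and 1.54, and with a pseudocount of 10 by 0.77 and 0.84, so neither passed 2. *Elf3* differed by 1.30. The median of the 3 genes compared was 2.12, or 2.21 with *Elf3*, without UMI at d0, at its bound of at least 166-fold, and that of all genes -0.01. These 3 genes reached the level filter only through d12, so their median could only be positive. Over all 9 genes the median was 0.31. None of the other 6 genes reached the level filter, and their differences lay between -0.05 and 0.63. Of the 12 fibroblast genes, 5 were higher and 2 lower, and *Sox17* was higher by 3.16.

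Picked colony cells of day 12 were then compared with the other day 12 cells. *Cited1* was higher by 5.05 in d12c, the largest rise of all genes, *Elf3* by 2.90, *Sall4* by 2.73, *Esx1* by 2.39 and *Gbx2* by 2.23, so that 5 genes were counted where 1.7% of 9422 genes were higher and 7.22% lower. *Hhex* differed by 1.01 and *Prdm1* by -1.26. The median of the 7 genes compared was 2.39, or 2.73 with *Gbx2* at its bound of at least 450-fold, against -0.30 over all genes. Of the 7, *Sall4*, *Esx1*, *Gbx2* and *Hhex* reached the level filter only through d12c, and over all 9 genes the median was 2.23. The result depended on the running numbers. For cells numbered 49 to 96, where 5.61% of genes were higher and 14.2% lower, the differences were 7.36 for *Cited1*, 4.81 for *Sall4*, 4.30 for *Elf3*, 4.10 for *Esx1*, 3.55 for *Gbx2* and -2.20 for *Prdm1*. For cells numbered 1 to 24 no gene of the 9 was counted, where 0.0651% of genes were higher and 0.304% lower, and *Cited1* and *Elf3* differed by 1.76 and 0.89 and *Sall4* and *Esx1* by -0.25 and -0.06. When all deposited cells entered, *Cited1* alone was counted, and with at least 6000 detected genes *Cited1* and *Elf3*. Fibroblast genes moved along with this, with 11 of 12 lower in d12c than in d12, and their part in the result was not tested.

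Between d20 and d12c, *Sall4* was higher by 2.59, *Esx1* by 2.54 and *Cited1* by 2.35, where 2.03% of 9042 genes were higher and 3.36% lower. Against cells numbered 49 to 96 only, the differences were 0.51, 0.82 and 0.04 and no gene of the 9 was counted, with 1.58% of genes higher and 1.65% lower. Of the 9 genes, *Hhex* differed most in that setting, at -1.41. *Elf3* and *Gbx2* differed there by -0.35 and -0.69, so the means of the 5 common regulators differed by less than 1 between the later colony cells of day 12 and d20.

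**Figure D3:**
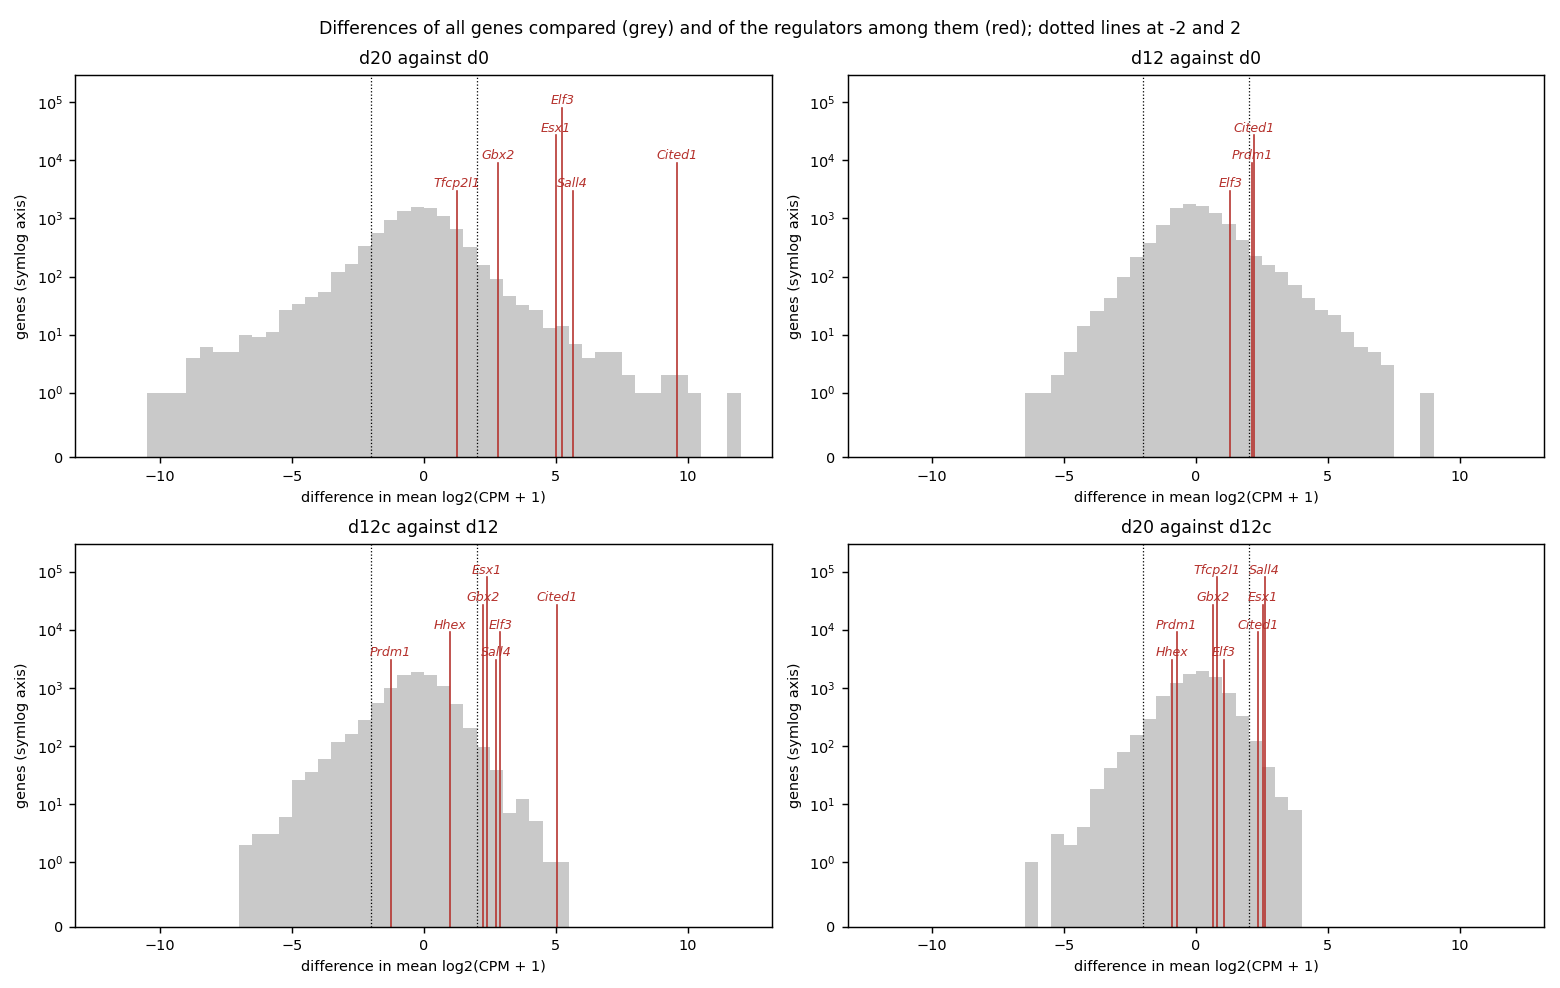
Number of genes (symlog axis) by difference in mean log2(CPM + 1) for the 4 comparisons, with all genes compared in grey, the regulators among them as red lines and dotted lines at -2 and 2. *Cited1* lies at 9.61 in d20 against d0 and at 5.05 in d12c against d12, while no regulator lies below -2.

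Relatives of the 9 genes, 23 members of the SALL, CITED, ELF, GBX, HNF4, TFCP2/GRHL and PRDM families, gave a background for the choice of genes. In d20 against d0 none of the 10 compared was higher or lower by more than 2, and their median difference was -0.58. *Cited2* differed by -1.24 and *Elf1* by 0.99. *Elf5*, a trophoblast factor close to *Elf3*, had no UMI at d0 or d20. Of 14 trophoblast genes, 4 could be compared and none was counted, and *Cdx2* had a mean of 10.3 CPM at d20 against 0 at d0. Of 15 pluripotency genes 5 could be compared, and *Tbx3*, *Lin28a* and *Klf4* were higher by 3.48, 3.06 and 2.03, whereas *Pou5f1*, which defines pluripotent cells, was at a mean of 0.16 CPM. Markers of other cells that embryos could contribute were low at d20. *Ptprc* and *Lyz2* of macrophages, *Tie1* of endothelium and *Sox10* of neural crest had no UMI, and the median summed CPM of each of these 3 lists was 0, with highest cells at 113, 158 and 109 CPM.

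How the regulators ran with the summed level of XEN genes was described cell by cell, and this sum is a score and not a cell type. The summed CPM of 13 XEN genes, none of them among the 9, was expressed as a share of its d20 median. No cell of d0 to d8c passed 50% of that median. In d12 it was passed by 3 of 67 cells, in d12c by 5 of 21 numbered 1 to 24 and by 24 of 30 numbered 49 to 96, and at d20 by 32 of 38. The 8 cells of the first 2 groups carried *Elf3* at 20 CPM or more in 6 cells, with a lowest, median and highest of 0.997, 144 and 443 CPM. *Esx1* had a UMI in 1 of them, at 0.997 CPM. *Sall4* was at 20 CPM or more in 1, a d12 cell at 94.98 CPM, *Gbx2* in 1, at 132 CPM, and *Cited1* in 4, with a median of 116 CPM. The cells with *Elf3* under 20 CPM were d12c cells number 12 and 16, at 2.97 and 0.997 CPM. They held *Sox17* at 959 and 36.9 CPM, *Gata4* at 1.48 and 0 CPM and fibroblast genes at 4768 and 2736 CPM. The d12c cell number 13 also had low *Gata4*, at 3.13 CPM, but *Elf3* at 443 CPM. The summed fibroblast genes of all 8 cells lay between 696 and 4768 CPM, and the median depth of the 8 was 944442 UMIs.

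The 24 d12c cells numbered 49 to 96 that passed the same level differed from these. *Elf3* was again common, at 20 CPM or more in 21 cells with a median of 91.3 CPM. *Esx1* was at that level in 15 cells with a median of 23.8 CPM, *Sall4* in 18 with a median of 101 CPM, *Gbx2* in 13 with a median of 29.2 CPM and *Cited1* in all 24 with a median of 2617 CPM. *Prdm1* had a UMI in 1 of these 24 cells, whereas 7 of the 8 above had one, at a median of 1.97 CPM over the 8. Fibroblast genes summed to between 0 and 172 CPM here, and the median depth was 273898 UMIs, lower than in the 8 cells. Of 32 such d20 cells, 24 carried *Elf3*, 21 *Esx1*, 27 *Sall4*, 13 *Gbx2*, 32 *Cited1*, 5 *Tfcp2l1* and 4 *Hhex* at 20 CPM or more. Late cells under 50% carried some of them too. Of 4 d20 cells at 10% to 50%, 4 carried *Cited1*, 3 each *Sall4*, *Esx1* and *Gbx2*, and 1 *Elf3*. Of 2 d20 cells under 10%, 2 carried *Cited1* and *Esx1*, 1 *Sall4* and none *Elf3* or *Gbx2*. Of 5 d12c cells numbered 49 to 96 at 10% to 50%, 5 carried *Cited1* and 2 each *Sall4*, *Elf3*, *Esx1* and *Gbx2*. Among cells above 50%, *Elf3* was thus shared, while *Esx1* at 20 CPM or more was seen only in the groups with lower fibroblast genes. Under 50% this did not hold cell by cell. These 5 d12c cells, with fibroblast genes up to 1234 CPM, and the 2 d20 cells under 10%, up to 1047 CPM, all had an *Esx1* UMI. Those sums reach into the range of the 8 cells. The only d12c cell numbered 49 to 96 under 10%, at 2813 CPM, had none. The part of the fibroblast genes, and of the number range that goes with them, was not tested.

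**Figure D4:**
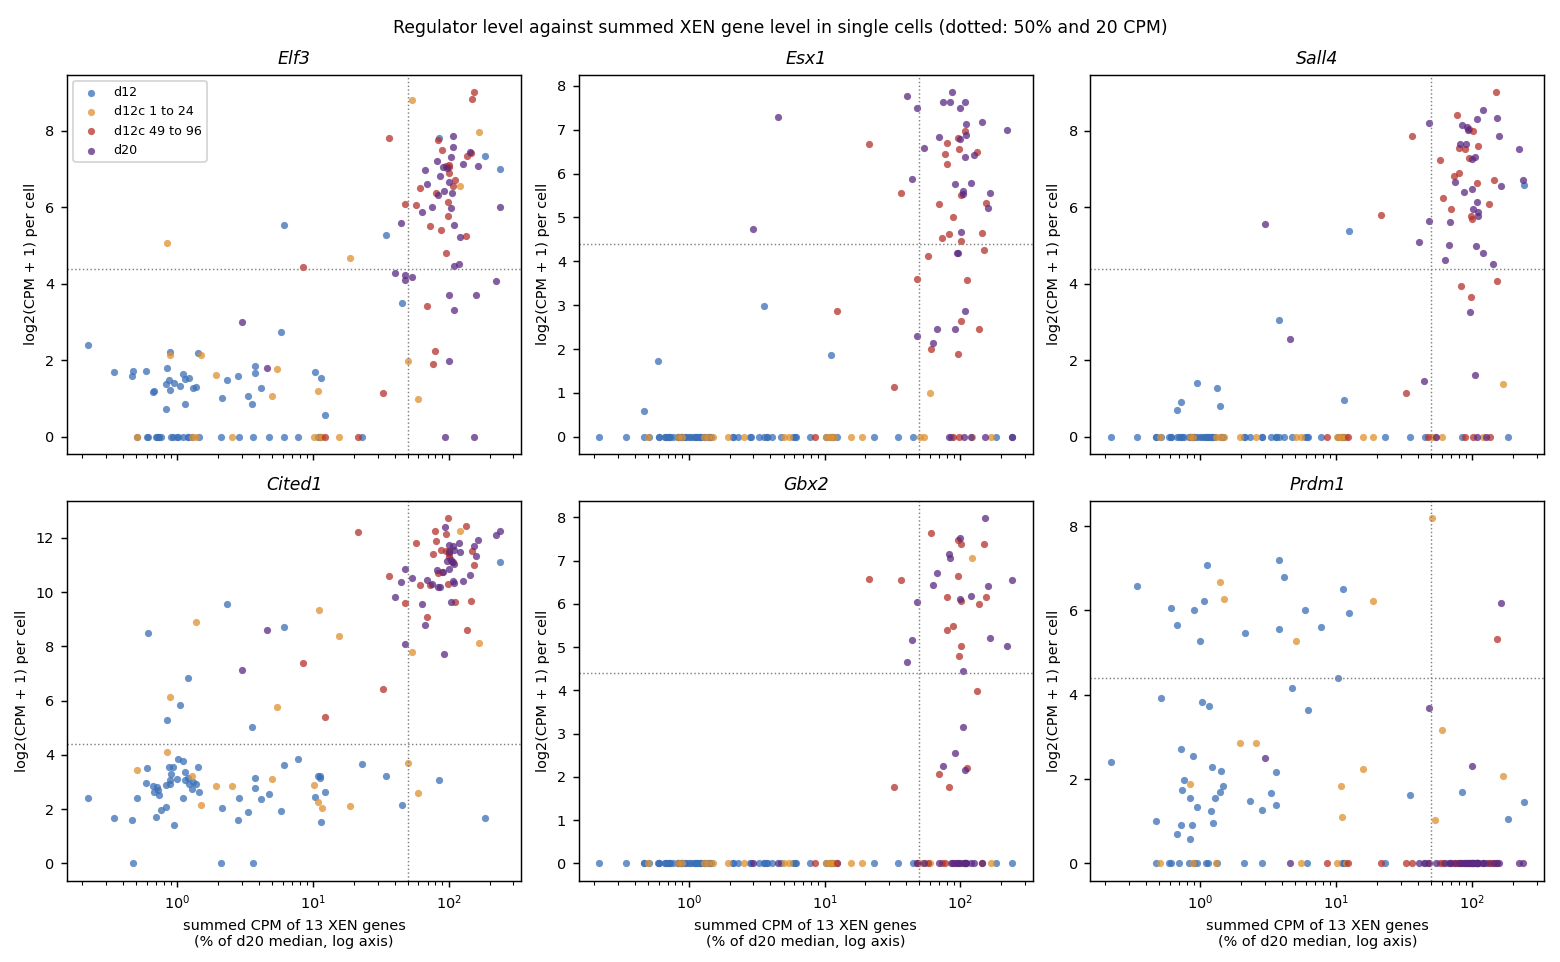
Level of 6 regulators (log2(CPM + 1), vertical axis) against the summed CPM of 13 XEN genes (% of the d20 median, log horizontal axis) in d12, d12c and d20 cells, 1 point per cell, with dotted lines at 50% and 20 CPM. To the right of 50%, d12 cells and d12c cells numbered 1 to 24 carry *Elf3* in 6 of 8 cells at 20 CPM or more and *Esx1* in none.

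The low *Elf3* signal of the remaining d12 cells was set beside that of XEN genes. In the 55 d12 cells under 10% of the d20 median, *Elf3* had a median of 1.08 CPM, which was 0.66% of its mean in the 8 cells above 50%. The same share was 0.53% for *Sox17*, 0.42% for *Gata4*, 0.50% for *Cldn6*, 0.45% for *Epcam* and 0.68% for *Cited1*. For *Prdm1* it was 5.79%, and 13 of the 55 cells were at 20 CPM or more. *Esx1* had a UMI in 3 of the 55 cells, up to 6.95 CPM, and *Gbx2* in none.

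Counting genes within a cell gave a clear step. At 20 CPM or more, a level that takes no account of gene length, the median cell carried 0 of the 9 regulators in every group from d0 to d12 except d8c, where it carried 1. d12c cells numbered 1 to 24 carried 1, and those numbered 49 to 96 and d20 cells carried 4. Cells with 3 or more numbered 1 of 514 up to d8c, a d3 cell, 1 of 67 at d12, 1 of 21 in d12c cells numbered 1 to 24, 27 of 30 in those numbered 49 to 96 and 34 of 38 at d20. The highest number was 7, in 1 d12c cell.

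**Figure D5:**
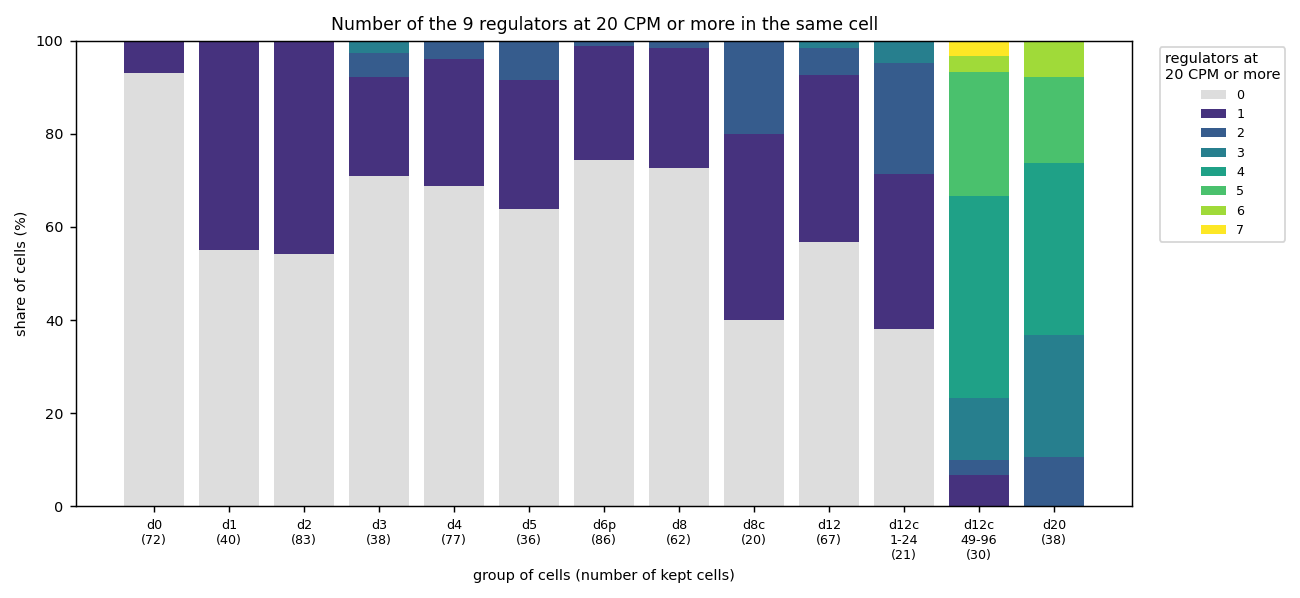
Share of kept cells (%, vertical axis) by the number of the 9 regulators at 20 CPM or more in the same cell, for each group with its number of kept cells below it. Cells with 3 or more are 27 of 30 in d12c cells numbered 49 to 96 and 34 of 38 at d20, against 1 of 67 at d12.

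Within the 68 cells of these last groups the genes did not run strictly together. *Sall4* and *Cited1* were both at 20 CPM or more in 51 cells and *Cited1* alone in 17. *Elf3* and *Esx1* were both at that level in 29 cells, *Elf3* without *Esx1* in 20, *Esx1* without *Elf3* in 14 and neither in 5. *Sall4* and *Gbx2* were together in 26 cells. Of 14 cells with *Hhex*, 13 carried *Elf3* and 8 *Sall4*. Spearman correlations over the 15 pairs of the 6 genes seen most ran from -0.11 to 0.40 with a median of 0.01, as a description over cells of 1 table that share libraries and differ in depth. Within d12c cells numbered 49 to 96 the 10 pairs of the 5 genes seen most there ran from -0.0065 to 0.63, highest for *Cited1* with *Esx1*, with a median of 0.29, and within d20 from -0.21 to 0.39 with a median of -0.04. No test was made on these values.

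Across the means of the 12 groups, the genes most like each regulator were looked up among 11295 genes by the Pearson correlation of mean log2(CPM + 1). For *Elf3* these were *Tmprss2* (1.00), *Lim2* (1.00) and *Epcam* (1.00), a transmembrane protease, a lens membrane protein and an epithelial adhesion molecule. For *Esx1* they were *Lin28a* (1.00), BC048679 (1.00) and *Sox14* (1.00), and those for *Sall4* included BC048679 (0.98) and *Lin28a* (0.98). *Cited1* was most like *Bhmt2* (0.97), *Epp13* (0.96) and *Exoc6* (0.96), *Gbx2* like *Myl3* (1.00), *Ucn* (0.99) and *Mogat2* (0.99), and *Tfcp2l1* like *Pgc*, *Trpv6* and *Gulo* (0.99 each). *Hhex* was most like *Klf11* (0.91), *Itpk1* (0.90) and *Hid1* (0.87), and *Prdm1* like *Efcc1* (0.92), *Foxf1* (0.91) and *Lonrf3* (0.91). With few groups high, values near 1 mostly reflect d12c and d20, and by Spearman correlation the leading 3 kept *Klf11* for *Hhex* and *Efcc1* for *Prdm1* and none of the others.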

How the data were processed

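Single cells of a C6FAE reprogramming course, picked by hand, were analysed from 1 table of deposited UMI counts per gene and cell, which the authors made by trimming reads, aligning them to the mm9 transcriptome and removing duplicates by UMI (aligner not given in the sources used here). All cell columns were used (0 left out). ERCC spike-ins (92 rows) and 4 entries listed more than once were removed, and 670 of 808 cells remained after a minimum of 4000 detected genes. Depth per kept cell was 17633 to 6004864 UMIs, with a median of 510306. No doublet caller was run on the hand-picked cells, and no cell was a copy of another. From the counts, CPM, log2(CPM + 1), shares of cells with Clopper-Pearson intervals and differences between group means were computed with Python 3.11.15, numpy 2.4.6, pandas 2.3.3 and scipy 1.17.1. The floor was 3 counts. The 10 batches of the series could not be assigned to cells, so no test was made. Genes named beyond the 9 regulators were the 3 most alike per regulator and members of the lists. A gene among these is not reported here. The 9 genes and all lists were chosen with earlier results of these data known. The script for the differences was checked on simulated counts. Alternatives changed the cell filter, pseudocount, depth, mean, level filter and number range.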

Additional observations from a re-analysis of the deposited data

How the results depend on the processing

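No paired analysis was possible because the batches of the cells are unknown. In d20 against d0 the number of regulators past a difference of 2 was 5, and 4 to 7 over all alternatives run. In d12 against d0 it was 2, and became 1 with all deposited cells, 0 with a pseudocount of 10, 0 after thinning and 4 from the log2 of the mean CPM + 1. In d12c against d12 it was 5, and became 1 with all deposited cells, 2 with at least 6000 detected genes, 1 with a pseudocount of 10 and 0 with cells numbered 1 to 24, an alternative chosen after seeing the data, where *Sall4* and *Esx1* turned to -0.25 and -0.059. In d20 against d12c it was 3, and became 1 with at least 2000 detected genes, 1 with a pseudocount of 10, 1 from the log2 of the mean (*Prdm1*, lower), 0 with cells numbered 49 and above and 6 with those numbered 1 to 24, also chosen after seeing the data. With all deposited cells, 27.7% of all genes passed 2 in d12c against d12. The causes were not tested. The order of first means above 5 CPM was kept for 7 to 9 of the 9 genes. Median depth was lowest at d20, and without replicates no spread between cultures was available.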
